A study of Mus musculus with 12 samples.

Results

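The genes described here are members of the oxidative stress defence that the transcription factor NRF2 controls. They were chosen by name: Slc7a11, Hmox1, Nqo1, Gclm, Gclc, Txnrd1, Srxn1, Sqstm1, Prdx1 and Sod2, each measured by the probe sets that carry its symbol alone in the platform annotation. Of these 10 genes, 9 had such a probe set, 21 probe sets in all, out of 34958 probe sets for 18194 genes on the array. Prdx1 had none, because its 5 probe sets also carry a second symbol, so it is not reported. All 9 measured genes passed the filter on low signal, as did 12792 genes of the whole array, and 20 of their 21 probe sets did. Slc7a11 was included because it was lower in KO arrays, so its difference between genotypes is given as a description without a test.

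The arrays held RNA of lymph node dendritic cells from C57BL/6 mice, the antigen-presenting cells that carry antigen to T cells. The 6 groups were KO at 0, 2 and 4 h and WT at 0, 2 and 4 h, with 2 arrays each, labelled A and B, and 12 arrays in all. KO stands for cells labelled p38a knockout and WT for cells labelled wild type. p38α, the product of Mapk14, is a protein kinase activated by stress and by microbial ligands. All groups but those at 0 h had received Pam3CSK4, a synthetic ligand of TLR2 modelled on bacterial lipoproteins. The labels give its concentration as 1 mg/ml. The labels used here name neither the promoter that drove the deletion nor separate animals or cultures for arrays A and B, so the p-values measure the spread between these arrays, which may be technical. No array held unstimulated cells at 2 or 4 h, so an effect of the ligand and of time in culture cannot be told apart. In such bulk samples, fewer cells of a type and less RNA per cell cannot be told apart either.

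NRF2, encoded by Nfe2l2, is held at a low level by the adaptor KEAP1, which marks it for degradation. Electrophiles and oxidants modify KEAP1, and NRF2 then accumulates, pairs with small MAF proteins and binds antioxidant response elements near its target genes, a binding that BACH1 opposes. The targets import cystine and build glutathione from it (Slc7a11, Gclc, Gclm), break down heme and reduce quinones (Hmox1, Nqo1), and keep thioredoxin and peroxiredoxins reduced (Txnrd1, Srxn1, Prdx1). Sqstm1 encodes p62, an autophagy receptor that also binds KEAP1. Sod2, the mitochondrial manganese superoxide dismutase, is best known as a target of NF-κB, which TLR2 ligands activate. In dendritic cells the cystine importer is also known for feeding cysteine to T cells during antigen presentation.

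Promoter sequence is shown for Slc7a11, whose level differed most between KO and WT arrays among the members, for Gclm and Txnrd1, which hold a match to the antioxidant response element, and for Sqstm1 and Sod2, which rose with the ligand and hold none. Each line gives the 250 bases before the transcription start site in the direction of the gene, from RefSeq on the GRCm38.p6 build. Capitals mark, in Gclm and Txnrd1, the letters TGACNNNGC on either strand and, in Slc7a11, the letters TGATGCAA on either strand.
Slc7a11, chr3:50443614-50443863, minus strand: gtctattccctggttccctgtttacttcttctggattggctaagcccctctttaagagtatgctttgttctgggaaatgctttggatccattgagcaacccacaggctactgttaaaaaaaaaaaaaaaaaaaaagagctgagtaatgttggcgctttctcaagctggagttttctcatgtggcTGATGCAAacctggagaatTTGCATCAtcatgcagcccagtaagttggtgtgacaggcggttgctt
Gclm, chr3:122245307-122245556, plus strand: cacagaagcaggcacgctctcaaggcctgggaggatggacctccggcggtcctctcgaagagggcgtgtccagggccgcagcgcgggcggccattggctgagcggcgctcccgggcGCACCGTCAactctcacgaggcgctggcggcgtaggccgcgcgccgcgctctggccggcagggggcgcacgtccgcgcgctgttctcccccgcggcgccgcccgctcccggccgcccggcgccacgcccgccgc
Txnrd1, chr10:82858956-82859205, plus strand: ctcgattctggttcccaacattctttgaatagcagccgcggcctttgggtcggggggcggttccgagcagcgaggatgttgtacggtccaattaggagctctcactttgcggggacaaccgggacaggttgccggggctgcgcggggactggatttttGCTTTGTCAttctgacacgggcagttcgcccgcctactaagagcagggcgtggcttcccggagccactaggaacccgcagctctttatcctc
Sqstm1, chr11:50210821-50211070, minus strand: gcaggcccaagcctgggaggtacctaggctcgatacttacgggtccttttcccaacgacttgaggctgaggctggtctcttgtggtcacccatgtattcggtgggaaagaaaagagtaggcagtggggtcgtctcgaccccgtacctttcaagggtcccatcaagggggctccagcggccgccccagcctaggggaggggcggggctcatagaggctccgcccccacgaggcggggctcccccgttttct
Sod2, chr17:13007589-13007838, plus strand: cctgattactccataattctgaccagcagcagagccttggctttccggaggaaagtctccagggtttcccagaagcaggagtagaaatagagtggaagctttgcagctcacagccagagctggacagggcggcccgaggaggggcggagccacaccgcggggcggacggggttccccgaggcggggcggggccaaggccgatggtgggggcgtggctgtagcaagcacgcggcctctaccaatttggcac

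The letters TGACNNNGC, the core of the antioxidant response element, were searched on both strands in windows of 300 bases, 250 before and 50 after the start site. They were present in 12.4% of 32851 promoters and in 4 of the 8 member genes with an entry, which were Gclm, Txnrd1, Srxn1 and Prdx1. The match began 134 bases before the start site in Gclm, 92 before it in Txnrd1 and 133 before it in Prdx1, where it overlapped an AP-1 site, TGAGTCA. In Srxn1 it lay 28 bases after the start site. Txnrd1 has 3 promoters in the table and the match was in 1 of them. Hmox1 and Gclc had no entry. The letters TGATGCAA, a part of the composite element bound by ATF4 and C/EBP proteins, were chosen after the Slc7a11 sequence had been seen. They occurred in 0.895% of promoters and at least 2 times in 0.00609%, and Slc7a11 held 2 copies, starting 66 and 47 bases before its start site. These matches describe the letters in these windows and no binding was measured.

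Values below are on the scale log2(signal + 16) after quantile normalization, on which changes of low genes are understated, and the brightest probe set stands for a gene. They were tested with limma in 1 fit of all 12 arrays, and a gene was called where the adjusted p over the 12792 tested genes was under 0.05. Errors after a difference are standard errors of that fit, with 2 arrays per group. Levels of different genes come from different probe sets and were not compared.

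The Mapk14 probe set did not follow the labels. Its brightest probe set read at 0 h 8.37 and 8.37, at 2 h 8.05 and 8.07, at 4 h 8.04 and 7.93 in KO arrays, against at 0 h 8.41 and 8.02, at 2 h 7.76 and 7.44, at 4 h 7.56 and 7.75 in WT arrays. The mean over the times was 0.31 ± 0.08 above that of WT arrays in KO arrays (adjusted p = 0.0138), a call lost without the WT 2 h array B (adjusted p = 0.052). The position of the probe set relative to the deleted part is not known, so the genotype could not be checked, and each direction below is that of the arrays labelled KO relative to those labelled WT. The deposited signals had trimmed means that differed 1.79-fold between arrays. After quantile normalization, arrays of 1 group correlated at 0.987 to 0.990 over the 12792 tested genes. Of 16 dendritic cell markers, 15 had a probe set and all 15 were above the filter. So were 12792 of all 18194 genes, 8 of 8 stromal and endothelial markers and 7 of 8 T cell markers with a probe set. Passing the filter therefore does not identify the cells.

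With Pam3CSK4 some members rose and others fell. Sod2, Txnrd1 and Sqstm1 were higher at 2 h than at 0 h, by 1.45- to 1.66-fold, and Slc7a11, Hmox1 and Srxn1 were lower at 4 h, by 1.21- to 1.63-fold, in both genotypes. The glutamate-cysteine ligase subunit Gclm and the quinone reductase Nqo1 passed no test, and Gclc fell in KO arrays alone, a difference between genotypes that was itself not called. In KO arrays 4 of the 9 members were called at 2 h against 0 h, with Sod2, Txnrd1 and Sqstm1 higher and Hmox1 lower, where 19.6% of all tested genes were called. In WT arrays the same count was 4 of 9, with Sod2, Txnrd1 and Sqstm1 higher and Slc7a11 lower, against 19.9% of all tested genes. At 4 h against 0 h, 5 of 9 members were called in KO arrays, Sod2 higher and Hmox1, Srxn1, Gclc and Slc7a11 lower, where 18.1% of all genes were. In WT arrays 6 of 9 were called, Sod2, Txnrd1 and Sqstm1 higher and Hmox1, Srxn1 and Slc7a11 lower, where 18.2% were. Between 2 and 4 h, 5 of 9 were called in KO arrays, Sod2 higher and Txnrd1, Sqstm1, Srxn1 and Hmox1 lower, beside 13.7% of all genes. In WT arrays only Sod2 was called between those times, 1 of 9, beside 11.1% of all genes. The responses of a genotype share its 0 h arrays. The median member differed at 4 h against 0 h by -0.15 in KO arrays and by -0.02 in WT arrays, where the medians of all tested genes were -0.05 and -0.02.

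**Figure D1:**
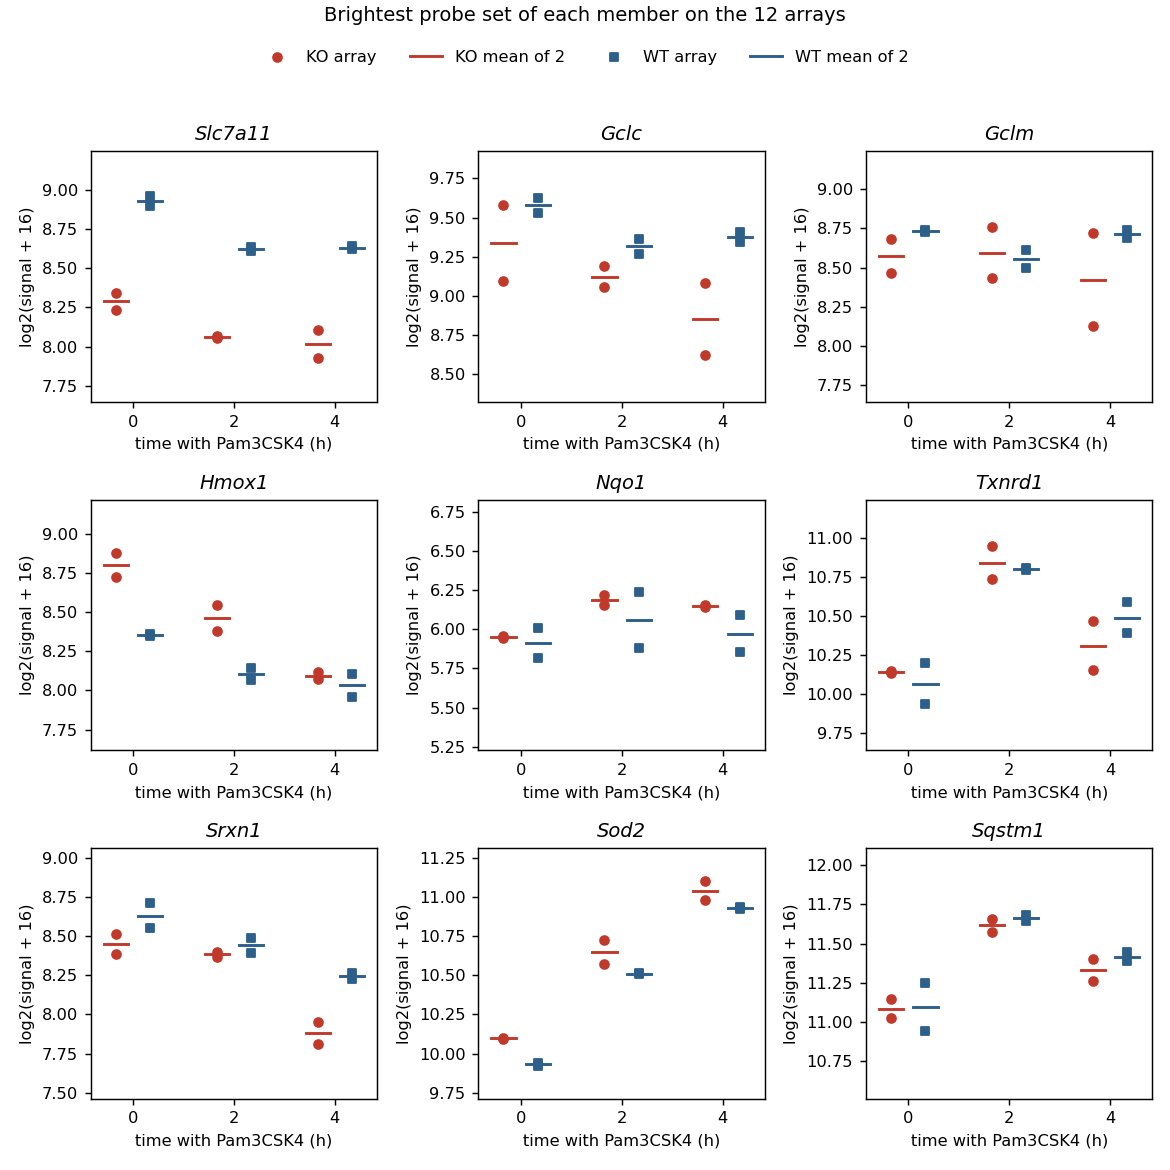
Signal of the brightest probe set of each member on each array, as log2(signal + 16), against hours with Pam3CSK4; red circles are KO arrays, blue squares WT arrays, and bars the mean of 2 arrays. Slc7a11 lies lower in KO arrays at every time, Sod2 climbs to 10.93 or higher at 4 h in both genotypes, and Txnrd1 and Sqstm1 peak at 2 h.

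Slc7a11, the light chain of the cystine-glutamate exchanger, gave at 0 h 8.34 and 8.24, at 2 h 8.06 and 8.07, at 4 h 8.10 and 7.93 in KO arrays. In WT arrays it gave at 0 h 8.96 and 8.89, at 2 h 8.64 and 8.61, at 4 h 8.64 and 8.62. Every KO array was below every WT array, and within each genotype both later times lay below 0 h. As deposited, before any scaling, the 0 h signals were 421 and 243 in KO arrays and 602 and 521 in WT arrays. The difference of KO from WT was -0.64 at 0 h, -0.56 at 2 h and -0.61 at 4 h, a level 1.56-, 1.47- and 1.53-fold lower in KO arrays. These differences are what brought the gene into the list and were not tested. At 4 h against 0 h Slc7a11 fell by 0.27 ± 0.09 in KO arrays (adjusted p = 0.0437) and by 0.30 ± 0.09 in WT arrays (adjusted p = 0.0272). At 2 h against 0 h the KO difference was -0.22 ± 0.09 (adjusted p = 0.0911) and the WT difference -0.31 ± 0.09 (adjusted p = 0.022). Which of them was called depended on the scaling: with each array divided by its trimmed mean both were (adjusted p = 0.0478 in KO arrays and 0.0229 in WT arrays), and on the unscaled signals the KO difference was (-0.70, adjusted p = 0.0362) and the WT difference was not (-0.65, adjusted p = 0.063). All 3 calls were close to the threshold. Each WT call was lost without any single one of its 4 arrays, with adjusted p up to 0.126 at 2 h and 0.149 at 4 h, and the KO call was lost without any of 9 arrays (adjusted p up to 0.315).

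The second Slc7a11 probe set, much dimmer, read at 0 h 5.80 and 5.76, at 2 h 5.91 and 5.48, at 4 h 5.99 and 6.28 in KO arrays, against at 0 h 6.16 and 7.15, at 2 h 5.88 and 6.01, at 4 h 5.86 and 6.36 in WT arrays. Its genotypes did not overlap at 0 h but did at 2 and 4 h, and in KO arrays its 4 h mean was 0.36 above that at 0 h, the other way from the brighter probe set. With the mean of both probe sets the KO difference at 4 h against 0 h turned to 0.04 (adjusted p = 0.895). Across 24 settings, with each array left out in turn among them, the difference of KO from WT over the times stayed between -0.80 and -0.49. At single times it ranged more widely, from -0.78 to -0.57 at 0 h, from -0.82 to -0.40 at 2 h and from -0.80 to -0.30 at 4 h. The weakest values at 2 and 4 h were those with both probe sets averaged.

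The 5 tested genes whose values followed Slc7a11 most closely over the 12 arrays were Rnf34 (Pearson r = 0.953), Dusp1 (0.952), Pde4b (0.951), Yme1l1 (0.948) and Resf1 (0.948). Dusp1 encodes a phosphatase that inactivates p38 and other MAP kinases, and Pde4b a cyclic AMP phosphodiesterase. Dusp1 averaged 10.81, 10.75 and 10.69 at 0, 2 and 4 h in KO arrays, against 11.29, 11.18 and 11.23 in WT arrays. The 12 points share genotype and time, and the gene was followed for its genotype difference, so these r values describe likeness only. Among the other members r with Slc7a11 ran from -0.592 for Nqo1 to 0.761 for Gclc.

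Gclc encodes the catalytic subunit and Gclm the modifier subunit of glutamate-cysteine ligase, the first step of glutathione synthesis. Gclc read at 0 h 9.09 and 9.58, at 2 h 9.05 and 9.19, at 4 h 9.08 and 8.62 in KO arrays, against at 0 h 9.53 and 9.62, at 2 h 9.37 and 9.27, at 4 h 9.41 and 9.34 in WT arrays. The 2 KO arrays lay further apart, with SDs of 0.35 at 0 h and 0.33 at 4 h, than the 2 WT arrays, with SDs of 0.07 and 0.05. Gclc at 4 h was called lower than at 0 h in KO arrays (-0.49 ± 0.14, adjusted p = 0.0284), but not without the KO 0 h array B (adjusted p = 0.344) or the KO 4 h array B (adjusted p = 0.331). In WT arrays it differed by -0.20 ± 0.14 (adjusted p = 0.403). Tested over all probe sets above the filter, a second Gclc probe set was lower in KO arrays at 4 h against 0 h by 0.63 (adjusted p = 2.00e-04), and the brightest one had an adjusted p of 0.0517. Gclm gave at 0 h 8.47 and 8.68, at 2 h 8.43 and 8.76, at 4 h 8.72 and 8.13 in KO arrays, against 8.74 and 8.73, 8.61 and 8.50, and 8.74 and 8.69 at the same times in WT arrays. None of its 6 time comparisons was called (adjusted p 0.491 to 0.957), and the 2 KO arrays at 4 h lay on either side of the values at 0 h. Without the KO 4 h array A the difference of 4 h from 0 h in KO arrays was -0.45. A second, dimmer Gclm probe set went the other way, by 0.42 in KO arrays (adjusted p = 0.207 over all probe sets), and by 0.02 in WT arrays (0.971).

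Hmox1 encodes the inducible heme oxygenase, which splits heme into biliverdin, iron and carbon monoxide. It gave at 0 h 8.88 and 8.72, at 2 h 8.38 and 8.54, at 4 h 8.12 and 8.07 in KO arrays, against at 0 h 8.36 and 8.35, at 2 h 8.07 and 8.14, at 4 h 8.11 and 7.96 in WT arrays. KO arrays stepped down at each time without overlap, WT arrays mainly between 0 and 2 h, and the genotypes overlapped at 4 h alone. At 4 h against 0 h it was 1.63-fold lower in KO arrays (-0.70 ± 0.10, adjusted p = 6.81e-05) and 1.25-fold lower in WT arrays (-0.32 ± 0.10, adjusted p = 0.0269). The KO call held without any single array. The WT call was lost without the WT 0 h array A (adjusted p = 0.108), the WT 0 h array B (0.0878) or the WT 4 h array B (0.217). At 2 h against 0 h the difference was -0.34 ± 0.10 in KO arrays (adjusted p = 0.0206), lost without the KO 0 h array A (0.17) or the KO 2 h array A (0.166), and -0.25 ± 0.10 in WT arrays (adjusted p = 0.0803). Nqo1, a quinone reductase and a standard reporter of NRF2 activity, stayed dim, at 5.96 and 5.94, 6.22 and 6.15, and 6.15 and 6.14 at 0, 2 and 4 h in KO arrays, against 5.82 and 6.01, 5.88 and 6.23, and 5.85 and 6.09 in WT arrays. Its largest difference was 0.24 ± 0.16 at 2 h against 0 h in KO arrays (adjusted p = 0.348), and no comparison of it was called.

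Txnrd1 encodes the cytosolic thioredoxin reductase, which draws on NADPH to reduce thioredoxin. It measured at 0 h 10.13 and 10.15, at 2 h 10.95 and 10.73, at 4 h 10.47 and 10.15 in KO arrays, against at 0 h 10.20 and 9.94, at 2 h 10.79 and 10.81, at 4 h 10.59 and 10.39 in WT arrays. Of its 3 probe sets, a dimmer one differed at 2 h against 0 h by 0.54 in KO arrays (adjusted p = 0.0611 over all probe sets) and 0.33 in WT arrays (0.27). The dimmest differed by 0.04 in KO arrays (0.939) and by 0.75 in WT arrays (0.0265). On the brightest probe set, used here, the 2 h arrays were above all others of their genotype. The rise at 2 h was 1.62-fold in KO arrays (0.70 ± 0.11, adjusted p = 2.61e-04) and 1.66-fold in WT arrays (0.73 ± 0.11, adjusted p = 1.45e-04), and both calls held without any single array. From 2 h to 4 h Txnrd1 fell by 0.53 ± 0.11 in KO arrays (adjusted p = 0.00418), lost without the KO 2 h array A (0.0627) or the KO 4 h array B (0.0727), and differed by -0.31 ± 0.11 in WT arrays (adjusted p = 0.0836). At 4 h it was still above 0 h in WT arrays (0.42 ± 0.11, adjusted p = 0.0123), lost without the WT 0 h array B (0.147) or the WT 4 h array A (0.137), and was 0.17 ± 0.11 above it in KO arrays (adjusted p = 0.343).

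Srxn1 encodes sulfiredoxin, which restores overoxidised peroxiredoxins. It gave at 0 h 8.51 and 8.38, at 2 h 8.40 and 8.37, at 4 h 7.95 and 7.81 in KO arrays, against 8.71 and 8.55, 8.49 and 8.39, and 8.22 and 8.27 in WT arrays. The 4 h arrays were below all earlier ones in each genotype. At 4 h against 0 h it was 1.48-fold lower in KO arrays (-0.57 ± 0.09, adjusted p = 4.24e-04) and 1.31-fold lower in WT arrays (-0.39 ± 0.09, adjusted p = 0.00854). The KO call held without any single array, and the WT call was lost without the WT 0 h array A (0.0996) or the WT 4 h array A (0.0647). At 2 h neither genotype was called (-0.06 ± 0.09 in KO arrays, adjusted p = 0.7, and -0.19 ± 0.09 in WT arrays, adjusted p = 0.189). Of its other probe sets, 2 read lower at 4 h than at 0 h in both genotypes. The differences were 0.34 and 0.39 in KO arrays (adjusted p = 0.188 and 0.0689 over all probe sets) and 0.55 and 0.26 in WT arrays (0.0277 and 0.26). With probe sets ending in _x_at and _s_at left out, the WT call at 4 h was lost (-0.26, adjusted p = 0.196). The dimmest of the 4 spread widely, with SDs of up to 0.23 in KO arrays and 0.78 in WT arrays, and passed no test at 2 or 4 h against 0 h.

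Sod2, which turns superoxide in mitochondria into hydrogen peroxide, had the most regular response. It gave at 0 h 10.09 and 10.10, at 2 h 10.57 and 10.72, at 4 h 11.10 and 10.98 in KO arrays, against at 0 h 9.92 and 9.94, at 2 h 10.51 and 10.51, at 4 h 10.93 and 10.93 in WT arrays. No arrays of different times overlapped within a genotype. At 4 h it was 1.92-fold above 0 h in KO arrays (0.94 ± 0.07, adjusted p = 9.67e-08) and 2.00-fold above it in WT arrays (1.00 ± 0.07, adjusted p = 4.54e-08). At 2 h it was 1.46-fold above 0 h in KO arrays (0.55 ± 0.07, adjusted p = 3.05e-05) and 1.49-fold in WT arrays (0.58 ± 0.07, adjusted p = 1.63e-05). From 2 to 4 h it rose by a further 0.39 ± 0.07 in KO arrays (adjusted p = 0.00128) and 0.42 ± 0.07 in WT arrays (adjusted p = 8.78e-04). All 6 calls held without any single array. A second bright probe set rose by 0.85 in KO arrays and 0.93 in WT arrays at 4 h. The probe set that failed the filter stayed between 4.47 and 4.87 in its group means. A dimmer probe set above the filter rose at 4 h by 0.53 in KO arrays (adjusted p = 0.0541 over all probe sets). In WT arrays the same probe set rose by 1.10 (adjusted p = 4.22e-04). At 0 h it stood 0.62 higher in KO than in WT arrays (adjusted p = 0.0897). With all 4 Sod2 probe sets averaged, the rise from 2 to 4 h was called in neither genotype. It was then 0.15 in KO arrays (adjusted p = 0.391) and 0.32 in WT arrays (adjusted p = 0.0727).

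Sqstm1 gave at 0 h 11.14 and 11.03, at 2 h 11.66 and 11.57, at 4 h 11.40 and 11.26 in KO arrays, against 11.25 and 10.94, 11.68 and 11.64, and 11.44 and 11.39 in WT arrays. A second, much dimmer probe set differed at 2 h against 0 h by 0.15 in KO arrays (adjusted p = 0.683 over all probe sets) and 0.37 in WT arrays (0.249). On the brightest one, used here, the 2 h arrays stood highest in each genotype, as with Txnrd1. Sqstm1 fell from 2 to 4 h by 0.28 ± 0.09 in KO arrays (adjusted p = 0.0397) and differed by -0.25 ± 0.09 in WT arrays (0.0866). With both probe sets averaged the KO call was lost (-0.13, adjusted p = 0.396). The rise at 2 h was 1.45-fold in KO arrays (0.53 ± 0.09, adjusted p = 3.85e-04) and 1.48-fold in WT arrays (0.57 ± 0.09, adjusted p = 1.81e-04), and both held without any single array. At 4 h it stood 0.25 ± 0.09 above 0 h in KO arrays (adjusted p = 0.0628) and 0.32 ± 0.09 above it in WT arrays (adjusted p = 0.0151), the WT call lost without the WT 0 h array B (0.21) or the WT 4 h array A (0.101). The KO difference was called without either WT 0 h array (0.016 without A, 0.0158 without B).

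**Figure D2:**
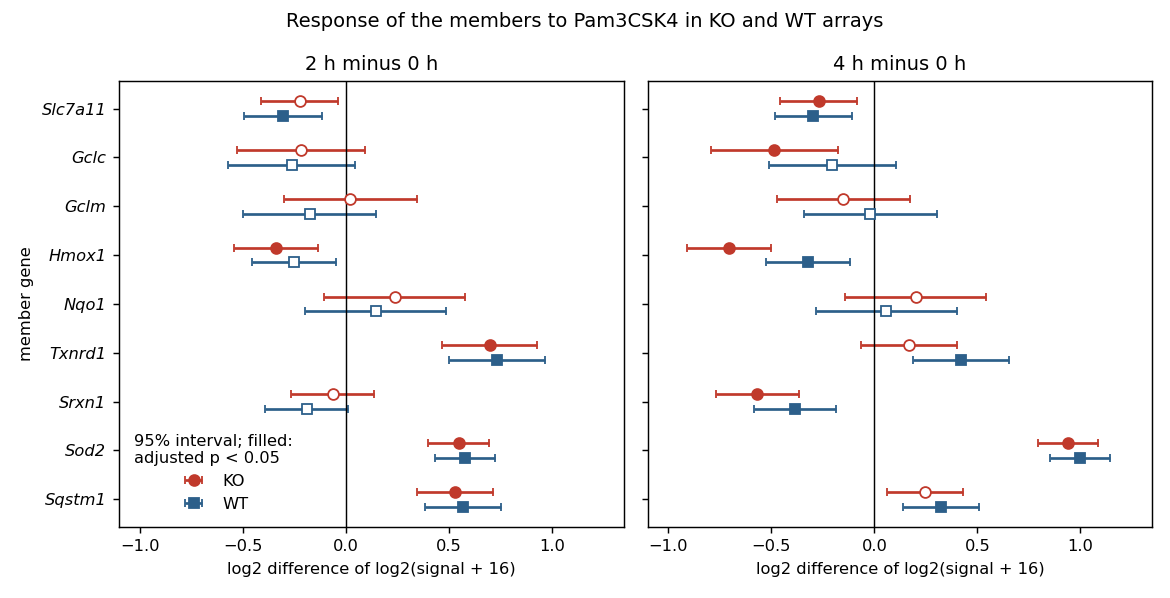
Difference of each time from 0 h for each member, as log2 differences with 95% intervals; red circles are KO and blue squares WT, filled where the adjusted p was under 0.05. Sod2, Txnrd1 and Sqstm1 lie to the right of 0 at 2 h in both genotypes, and Hmox1 and Srxn1 lie to the left at 4 h, further in KO arrays.

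The scale of the arrays bears on these responses. Left unscaled, the median of all tested genes was shifted by -0.41 at 2 h in KO arrays and by -0.35 at 2 h in WT arrays, and by -0.20 and -0.16 at 4 h. On that scale Sod2 was 0.15 and 0.34 above 0 h at 2 h in KO and WT arrays, Txnrd1 0.31 and 0.51, and Sqstm1 0.26 and 0.37, each above 0 but none called. Gclc (-0.66, adjusted p = 0.0378) and Slc7a11 (-0.70, adjusted p = 0.0362) were called lower at 2 h in KO arrays there, so that with Hmox1 the count was 0 higher and 3 lower, against 3 higher and 1 lower after scaling. Relative to the shift of all genes the rises were 0.56 and 0.69 for Sod2, 0.72 and 0.86 for Txnrd1 and 0.67 and 0.73 for Sqstm1. Hmox1 at 4 h in KO arrays (-0.87, adjusted p = 0.0199) and Sod2 at 4 h in KO (0.82, adjusted p = 0.00729) and WT arrays (0.91, adjusted p = 0.00191) stayed called without scaling. With each array divided by its trimmed mean, these calls and those of Txnrd1, Sqstm1 and Sod2 at 2 h held in both genotypes.

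Whether the response differed between genotypes was tested directly, as the KO response minus the WT response. None of the 8 members other than Slc7a11 was called at 2 h, where 0.0313% of all tested genes were, or at 4 h, where 0.0469% were. At an unadjusted p under 0.05 there were, by the brightest probe sets, 0 members at 2 h and 1 at 4 h. That one was Hmox1, with a difference of -0.38 ± 0.14 (95% interval -0.67 to -0.09, limma adjusted p = 0.708). For Sod2 the difference at 4 h was -0.06 (interval -0.26 to 0.15), and for Txnrd1 at 2 h it was -0.03 (interval -0.36 to 0.29). Differences within these bounds were not excluded with 2 arrays per group, and the bounds are no limit of detection. At the same times the other probe sets above the filter gave -0.08 and -0.57 for Sod2 and 0.21 and -0.71 for Txnrd1. None of these was called (limma adjusted p 0.932 to 0.998 over all probe sets). The unadjusted limma p was under 0.05 for the -0.57 of Sod2 (0.0309) and the -0.71 of Txnrd1 (0.0289). The second Gclc probe set gave -0.39 at 4 h (interval -0.65 to -0.13). Its unadjusted limma p was 0.00638, and it was not called either (adjusted p = 0.929 over all probe sets). For Slc7a11 the values were 0.08 at 2 h and 0.03 at 4 h, without a test.

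Between genotypes, 4 of the 8 members other than Slc7a11 were called when KO and WT arrays were compared over the times: Hmox1 and Sod2 higher, and Gclc and Srxn1 lower in KO arrays. Of all tested genes, 10.5% were called in that comparison. Hmox1 was 1.22-fold higher in KO arrays (0.29 ± 0.06, adjusted p = 0.00299) and Sod2 1.10-fold higher (0.14 ± 0.04, adjusted p = 0.0379). Gclc was 1.25-fold lower by its brightest probe set (-0.32 ± 0.08, adjusted p = 0.0227) and Srxn1 1.15-fold lower (-0.20 ± 0.05, adjusted p = 0.0251). The second Gclc probe set, of similar brightness, differed by only -0.06 over the times (adjusted p = 0.574 over all probe sets) and stood 0.13 higher in KO arrays at 0 h (adjusted p = 0.621), and with both averaged the Gclc call was lost (-0.19, adjusted p = 0.0671). Among the 4 called members, the Hmox1 call alone held without any single array. Gclc and Srxn1 were each lost without any of 6 arrays, with adjusted p up to 0.0675 and 0.0766, and Sod2 without any of 10 (adjusted p up to 0.118). Without scaling between arrays, Sod2 turned to -0.08 (adjusted p = 0.784), which is 0.04 relative to the median of all genes, and Hmox1 stood at 0.09 (adjusted p = 0.802), or 0.21 relative to it. Gclm, Nqo1, Txnrd1 and Sqstm1 differed by -0.14 to 0.11, with adjusted p of 0.39 or more. A dim second Sqstm1 probe set, with means of 4.74 at 0 h in KO arrays and 5.03 at 0 h in WT arrays, was lower in KO arrays (-0.39, adjusted p = 0.0475 over all probe sets).

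**Figure D3:**
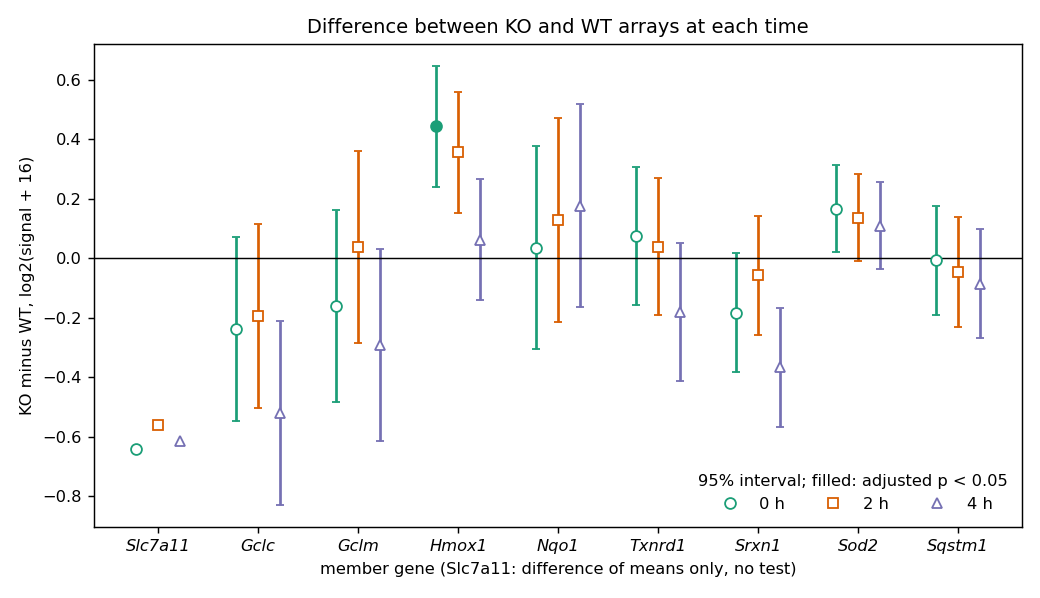
KO minus WT for each member at 0, 2 and 4 h, in log2 units with 95% intervals, filled where the adjusted p was under 0.05; Slc7a11 is shown as the difference of means alone. Slc7a11 lies between -0.64 and -0.56 at all times, while Hmox1 lies at 0.44 at 0 h, 0.36 at 2 h and 0.06 at 4 h.

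At single times 1 of the 8 was called at 0 h, where 3.3% of all genes were. This was Hmox1, 1.36-fold higher in KO arrays (0.44 ± 0.10, adjusted p = 0.0163), a call lost without the KO 0 h array A (0.152), the WT 0 h array A (0.0635) or the WT 0 h array B (0.105). At 2 h limma called 0 of the 8, and 1 had an unadjusted p under 0.05, beside 2.3% of all genes called. At 4 h it called 0 of the 8, and 2 had an unadjusted p under 0.05, beside 2.39% of all genes called. These were Gclc (-0.52 ± 0.14, adjusted p = 0.0814) and Srxn1 (-0.37 ± 0.09, adjusted p = 0.0544). Both moved across the threshold with the arrays used: Gclc was called without the KO 0 h array A (0.0351), the KO 0 h array B (0.0352) or the KO 4 h array A (0.0221), and Srxn1 without the WT 0 h array A (0.0498) or B (0.0491).

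Markers of macrophages and monocytes, cells known to express Hmox1, moved with the genotype and with time. Of 16 listed, 13 were tested, and 10 of these 13 were higher and 0 lower in KO arrays, over the times and also at 0 h alone. Of all tested genes, 6.21% were higher and 4.28% lower in KO arrays over the times, and 3.3% were called at 0 h. The linear signal was summed over all 15 listed genes with a probe set, 13 of them above the filter. Lyz2, the brightest of the list, weighs most in this sum. It ran from 6022 to 6249 at 0 h, 4505 to 4716 at 2 h and 4169 to 4314 at 4 h in KO arrays, against 3565 to 3721, 2753 to 3040 and 2411 to 2632 in WT arrays. At 4 h against 0 h, 1 of the 13 was higher and 8 were lower in KO arrays, and 2 were higher and 7 lower in WT arrays. Of all tested genes, 7.24% rose and 10.9% fell at 4 h in KO arrays, and 8.31% rose and 9.9% fell in WT arrays. The same shares of all genes stand beside the counts of the lists that follow. Dendritic cell markers moved as well: of 15, 6 were higher and 1 lower in KO arrays over the times, and 5 higher and 0 lower at 0 h. At 4 h against 0 h, 3 of them were higher and 0 lower in KO arrays, and 6 higher and 1 lower in WT arrays. Markers of stromal and endothelial cells were higher in KO arrays for 3 of 8 and lower for 0. The T cell list summed to 2527 to 2664 at 0 h and 1771 to 1788 at 4 h in KO arrays, against 2771 to 3097 and 1849 to 1981 in WT arrays. Of its 7 tested genes 0 were higher and 1 lower in KO arrays over the times, and at 4 h against 0 h 0 were higher and 1 lower in KO arrays and 0 higher and 3 lower in WT arrays. The gene lower in KO arrays was Il7r, the interleukin 7 receptor and the brightest of the list, at 9.47 to 10.71 in KO arrays and 9.68 to 11.08 in WT arrays (-0.28, adjusted p = 4.51e-04), named after its values were seen. Cd3d, Cd3g, Cd8a and Thy1 differed by 0.06 to 0.14, and Cd3e and Cd28 by -0.05 and -0.12, none called. The part of these cells in the genotype differences of Hmox1 and the other members, and in the members' falls with time, was not tested.

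Other genes of the same pathways were read from 7 lists of 106 genes, of which 98 had a probe set and 96 were tested. More of them were called lower than higher with time: at 2 h 12 rose and 18 fell in KO arrays, and 12 rose and 21 fell in WT arrays. At 4 h 11 rose and 29 fell in KO arrays, and 10 rose and 19 fell in WT arrays. Of all tested genes, 7.85% rose and 11.7% fell at 2 h in KO arrays, 8.43% rose and 11.5% fell at 2 h in WT arrays, 7.24% rose and 10.9% fell at 4 h in KO arrays, and 8.31% rose and 9.9% fell at 4 h in WT arrays. The median of the 96 genes at 4 h was -0.16 in KO arrays and -0.12 in WT arrays, where that of all tested genes was -0.05 and -0.02. Without scaling between arrays the split at 2 h was 2 higher and 30 lower in KO arrays and 2 and 21 in WT arrays, and at 4 h it was 2 and 7 in KO arrays and 2 and 8 in WT arrays. There the median of all tested genes was itself shifted, by -0.41 and -0.35 at 2 h and by -0.20 and -0.16 at 4 h. The shares of all genes called without scaling are not given here, so these splits cannot be set against them. Over the times, 17 of the 96 were higher and 6 lower in KO than in WT arrays, where 6.21% of all tested genes were higher and 4.28% lower. Without scaling that split was 1 higher and 5 lower, and the median of all tested genes was shifted by -0.12. For the difference of the responses 0 of 96 were called at either time.

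The NRF2 control list held the partners and regulators of NRF2 itself. At 2 h 3 of its 11 genes rose and 3 fell in KO arrays, and 2 rose and 2 fell in WT arrays. Maff, a small MAF partner, averaged 7.43, 8.68 and 8.01 at 0, 2 and 4 h in KO arrays, against 6.93, 8.20 and 7.60 in WT arrays. It rose by 1.26 at 2 h in KO arrays (adjusted p = 6.00e-07) and by 1.27 in WT arrays (adjusted p = 4.63e-07), calls that also held without scaling, and it was 0.46 higher in KO arrays over the times (adjusted p = 1.69e-04). Mafg, another small MAF protein, rose by 0.98 in KO arrays and 0.76 in WT arrays at 2 h. Nfe2l2, the gene of NRF2, fell by 0.43 at 2 h in KO arrays (adjusted p = 1.78e-04) and by 0.46 in WT arrays (adjusted p = 8.29e-05). It averaged 9.99, 9.56 and 9.90 at 0, 2 and 4 h in KO arrays and 10.01, 9.55 and 9.98 in WT arrays, so that at 4 h it was not called against 0 h in either genotype.

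In the glutathione and cystine list of 25 tested genes, 5 rose and 6 fell at 4 h in KO arrays, and 5 rose and 4 fell in WT arrays. Gpx4, the peroxidase of membrane lipids, fell by 0.80 in KO arrays (adjusted p = 2.54e-07) and 0.69 in WT arrays (adjusted p = 9.39e-07). Glrx, which reduces glutathione bound to proteins, was 0.75 higher in KO arrays over the times (adjusted p = 6.61e-07), and Gsto1, a glutathione transferase, 0.78 lower (log2 difference -0.78, adjusted p = 5.52e-07), and both calls held without scaling. In the thioredoxin and peroxiredoxin list of 14, 0 rose and 5 fell at 4 h in KO arrays, and 0 rose and 3 fell in WT arrays. Prdx2, a cytosolic peroxiredoxin, fell by 0.55 in KO arrays (adjusted p = 1.24e-04) and 0.85 in WT arrays (adjusted p = 1.25e-06). In the heme and iron list of 11, 0 rose and 5 fell in KO arrays, and 1 rose and 4 fell in WT arrays. Hmox2, the constitutive heme oxygenase, fell by 0.63 at 2 h in KO arrays and by 0.82 in WT arrays, and Flvcr1, a heme exporter, by 0.59 and 0.55. Slc40a1, the iron exporter ferroportin, known from macrophages, fell by 1.05 at 2 h in KO arrays (adjusted p = 0.00107) and by 0.78 in WT arrays (adjusted p = 0.00826, but 0.0617 without the WT 2 h array A).

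The list of NADPH supply and phase 2 enzymes had 15 tested genes, of which 0 rose and 9 fell at 4 h in KO arrays, and 0 rose and 5 fell in WT arrays. Cat, catalase, fell by 0.60 at 2 h in KO arrays and by 0.59 in WT arrays. Idh1, the cytosolic NADP-dependent isocitrate dehydrogenase, fell by 0.61 and 0.51 at 2 h in KO and WT arrays, and Taldo1, of the pentose phosphate pathway, by 0.48 and 0.49 at 4 h. In the list of superoxide sources 2 of 9 genes rose and 0 fell at 4 h in each genotype. They were Cybb, the catalytic subunit of the phagocyte NADPH oxidase, which rose by 0.84 in KO arrays and 0.82 in WT arrays, and Ncf1, its p47 organiser, by 0.52 and 0.49. Among 11 autophagy receptors and stress proteins 4 rose and 2 fell at 2 h in each genotype, and at 4 h 0 rose and 4 fell in KO arrays and 0 rose and 3 fell in WT arrays. Mt1, a metallothionein, fell by 0.50 at 4 h in both genotypes, and Hspb1, a small heat shock protein, fell by 0.59 in KO arrays (adjusted p = 8.43e-05) and by 0.28 in WT arrays (adjusted p = 0.0256).

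**Figure D4:**
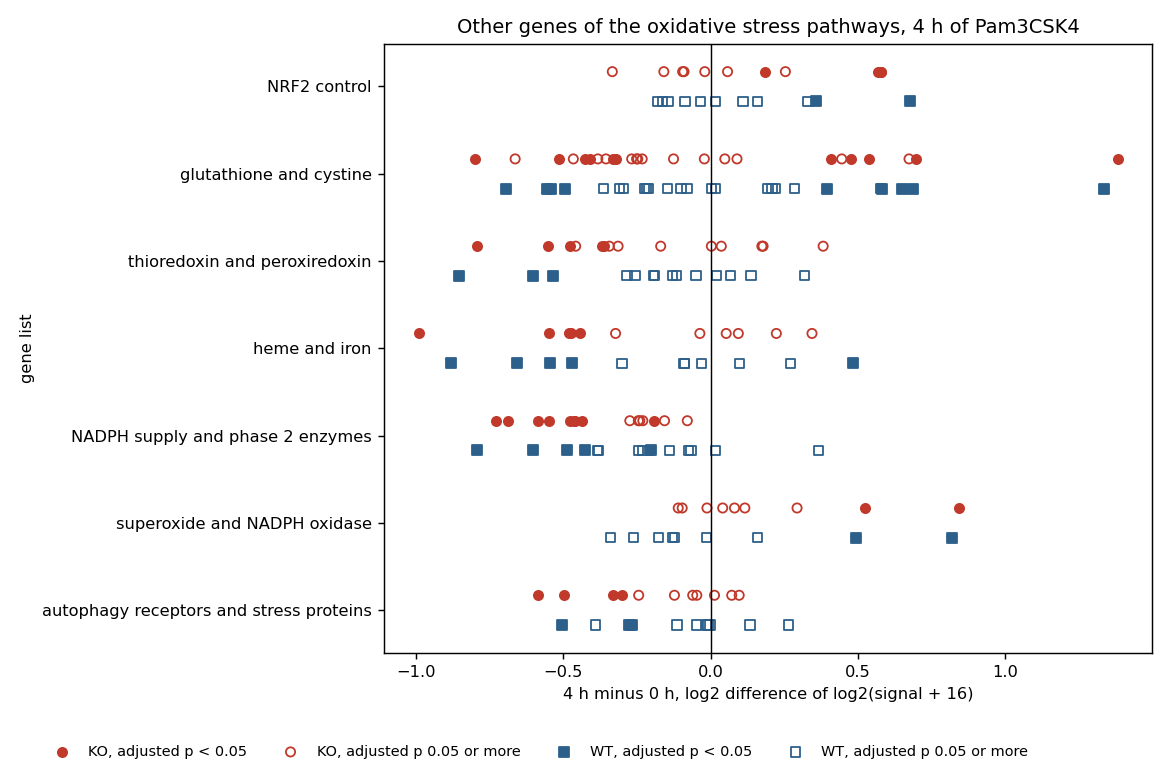
Difference of 4 h from 0 h, in log2 units, for the 96 other pathway genes in 7 lists; red circles are KO and blue squares WT, filled where the adjusted p was under 0.05. In the list of NADPH supply and phase 2 enzymes all called genes lie left of 0, and in the list of superoxide and NADPH oxidase both called genes lie right of it.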

How the data were processed

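Messenger RNA was measured on 12 Affymetrix mouse 3' arrays. Per the labels' protocols, Trizol and column extraction was followed by amplification of 0.2 ug of RNA with a 3' IVT kit. The deposited values are linear intensity signals, 1 per probe set and array; the submitters' processing notes name MAS5 for the summary. Neither its version nor a scaling target or detection call is given in the sources used here. Every value column was mapped to a sample, and 0 were left over.

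The arrays were quantile normalized, taken as log2(signal + 16) and reduced to the brightest probe set per gene among the 34958 of 45101 probe sets that had a single symbol in the platform annotation; 932 had several symbols and 9211 none. Genes whose mean reached the 40th percentile of probe sets (4.73) were tested, 12792 in all. One model of 6 group means was fitted (limma 3.58.1, R 4.3.3, lmFit and eBayes with a trend, 6 residual and 9.13 prior degrees of freedom), two-sided, with Benjamini-Hochberg adjustment over all tested genes per comparison. The fit was tested on simulated data. Because quantile normalization gives all arrays 1 distribution, a change is measured against the mass of probe sets. The number of arrays limits the precision. The members, the pathway and marker lists and the settings were chosen with earlier results of these data known. Named genes outside the members are those with the smallest p among the called genes of each list, at most 3 a list, and the 5 genes with the highest r with Slc7a11. Arrays of the same letter, A or B, shared no strong deviation: over 15 pairs of groups the correlation of their deviations ran from -0.04 to 0.10, above 0.1 in 1. The arrays were therefore fitted without pairing, but whether the letters pair them cannot be told from these values. The alternatives are given in the closing section.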

Additional observations from a re-analysis of the deposited data

How the results depend on the processing

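The 102 tests of single members, 30 of them called, were repeated under settings planned with earlier results of these data known. To these 1 was added later, in which all probe sets above the filter were tested. Of 2550 values 2382 kept their direction, where called, and their side of the threshold, 128 lost a call, 38 gained one and 2 turned round. A further 86 changed sign while called under neither setting, 21 of them on the unscaled signals and 14 when the probe sets of a gene were averaged. The 2 that turned round were Slc7a11 at 4 h against 0 h in KO arrays when its probe sets were averaged (0.0422) and Sod2 in KO against WT arrays over the times on the unscaled signals (-0.0842).

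Counts of called members moved as follows, and the cause was not tested. On the unscaled signals 0 members were called at 2 h against 0 h in WT arrays (4 after scaling), 1 at 4 h (6), and 0 between 2 and 4 h (1). At 2 h against 0 h in KO arrays the count was 3 (4), with 0 higher and 3 lower. It was 2 at 4 h against 0 h in KO arrays (5), 0 between 2 and 4 h (5), 1 over the times between genotypes (4) and 0 at 0 h (1). Without the trend in eBayes 2 were called at 4 h against 0 h in WT arrays, 3 in KO arrays, 3 between 2 and 4 h in KO arrays, 1 over the times and 0 at 0 h between genotypes. With all probe sets of a gene averaged, 0 and 1 were called between 2 and 4 h in WT and KO arrays and 2 over the times between genotypes. Between 2 and 4 h in WT arrays the count was 3 with trimmed-mean scaling, with the fit of only the groups compared and at an adjusted p under 0.1, and 2 without probe sets ending in _x_at and _s_at. Without a filter 2 were called over the times between genotypes, with the fit of only the groups compared 0 at 0 h, and with all probe sets tested 3 at 4 h against 0 h in KO arrays. At an adjusted p under 0.1, 1 was called at 2 h and 2 at 4 h between genotypes, and with a filter at the 60th percentile 1 at 4 h. Pseudocounts of 1 and 64 left each count within 1.5 times.

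The replicate block gave 3 called members between 2 and 4 h in WT arrays (1 without it) and 1 between genotypes at 4 h (0 without it). Whether the letters pair the arrays is not known. Leaving out each array in turn gave 2 to 6 called members at 4 h against 0 h in WT arrays, 1 to 2 between 2 and 4 h, 3 to 6 at 4 h against 0 h in KO arrays and 2 to 6 between 2 and 4 h. It gave 1 to 4 over the times between genotypes, 0 to 1 at 0 h and 0 to 1 at 4 h. With 1 array left in a group, that array was assumed to vary like the other groups.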

Other observations

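Beside Slc7a11, whose signal fell with time, 2 genes of the same cystine and glutathione route were looked up after values had been seen. Chac1, which degrades glutathione inside cells, was 1.27 higher at 2 h than at 0 h in KO arrays on the log2 scale (adjusted p = 6.37e-05) and 1.13 higher in WT arrays (adjusted p = 1.79e-04), and both calls held without any single array. Slc3a2, the heavy chain that carries the Slc7a11 product to the membrane, differed by -0.18 in KO arrays (adjusted p = 0.244) and by -0.23 in WT arrays (adjusted p = 0.118) at 2 h. Between KO and WT arrays over the times it differed by 0.06 (adjusted p = 0.623).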
